A study of Mus musculus with 46 samples.

Results

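Transcript loss was followed in PrE-induced cells, mouse pluripotent stem cells of the expanded potential type (EPSCs) that had been moved to a medium inducing primitive endoderm (PrE). These cultures, labelled PrEdiff, received actinomycin D, an inhibitor of transcription, and RNA was sequenced after 0, 1, 2 and 3 h, with 2 libraries per time. The libraries were chosen by that label and number 8 of the 46 in the series, which fall into 19 groups. Of 21812 genes in the count table, 13591 had enough reads for a slope, the log2 change per hour of actinomycin D. The groups set beside them were EPS, the EPSCs without induction under the same 4 times, and PrE-induced cultures with no actinomycin D on their labels: Virma_cKO and Virma_WT, Mettl3_cKO and Mettl3_WT, and siIgf2bp3 and siNC, with 2 libraries each. The last pair was PrE-E, labelled CD140+, and EPI-E, labelled CD140-, with 2 libraries each. The labels name no deleter line, strain or culture of origin, and do not say that the libraries of a time came from separate cultures. The series title concerns N6-methyladenosine (m6A) and the mRNA stability of transcription factors in PrE, and the stated aim is to compare RNA stability across cell states.

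The PrE forms in the blastocyst beside the epiblast, and its descendants line the yolk sac. The level of an mRNA is set by its synthesis and its decay, and when transcription is blocked the fall of a transcript follows its decay. Messages of transcription factors, feedback inhibitors and growth-response genes are known to be short-lived, while those of ribosomal proteins and metabolic enzymes are known to be long-lived. m6A is placed on mRNA by a writer complex with Mettl3 as its catalytic subunit and Virma as a scaffold, and is kept away from sequence near exon junctions.

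Total counts were 14927080 to 18402739 per library. Levels are CPM, counts scaled to library size with TMM factors over the 8 libraries, or over all 16 where EPS stands beside them, which changes the CPM of the same library. Each slope is relative to the average transcript, since every library is scaled to its own counts. A slope of 0 therefore marks a transcript that moved with the average one, not one that was stable. The share of a transcript below means its CPM on this scale, not its part of all counts. TMM factors fell from 1.139 and 1.138 at 0 h to 0.905 and 0.904 at 3 h, so a slope of 0 means a falling part of all counts. Scaling to library totals moved the median slope of all genes by -0.115, scaling to ribosomal protein genes by -0.349, and RLE size factors by 0.00522. Replicates lay close to sampling noise, with a chi-square per degree of freedom of 1.22 at 0 h, 1.28 at 1 h, 1.30 at 2 h and 1.32 at 3 h, so p-values here reflect how far these libraries spread, and that spread may be technical. The 3 h libraries stood apart: on the third principal component, with 8.21% of the variance over the 16 actinomycin D libraries, PrEdiff at 3 h lay at 15.4 and 15.1 and EPS at 3 h at 51.9 and 50.9, against -28.7 to 2.8 for the other libraries. Slopes over 0 to 2 h are given where they differ. PrE markers were present at 0 h. Gata6 had 119 and 125 CPM in PrEdiff, against 4.36 and 4.44 CPM in EPS. Sox7 had 92.1 and 85.9 CPM in PrEdiff, against 1.52 and 1.88 CPM in EPS. Pluripotency genes were present too, Pou5f1 with 332 and 335 CPM in PrEdiff and 973 and 972 CPM in EPS, and in bulk RNA fewer cells of a type and less RNA per cell cannot be told apart.

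A slope below 0 passed the test (edgeR's quasi-likelihood test, Benjamini-Hochberg adjusted p under 0.05, used for every adjusted p here) for 3815 genes, 28.1% of the 13591, and a slope above 0 for 3437 genes, 25.3%. A slope of -0.5 or lower, called fast loss below, was reached by 713 of the falling genes, 5.25% of all genes tested, with a median slope of -0.64. At their median, fast-loss transcripts held 27.6% of their 0 h share after 3 h, the 3102 other falling genes (slow loss) 62.1%, and the 3437 rising genes (relative gain) 146%. Both 3 h libraries lay below both of 0 h for 5867 of the 13591 genes and above them for 5436. Among the 6339 genes that passed in neither direction these counts were 2052 and 2000. Levels that do not overlap between hours, given for single genes below, are therefore not particular to those genes. Fast-loss genes were of low abundance, with a median of 9.15 CPM at 0 h against 46 CPM for relative gain, and 225 of them averaged at least 10 CPM. The limit of -0.5 is a convention: Syde1 (-0.50106), Frmd4a (-0.50089) and Tshz1 (-0.50071) lay just inside it, and Zfp507 (-0.49962), Hs3st1 (-0.49917) and Spry1 (-0.49908) just outside. Scaling to library totals gave 6628 falling and 1312 rising genes, and scaling to ribosomal protein genes 12086 and 11, so the number of genes in each direction rests on the scaling. Over 0 to 2 h, 1127 genes were in fast loss, and 635 were in both sets, 89.1% of the 713 and 56.3% of the 1127.

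The transcription factors of the PrE were among the transcripts lost fastest. Of 12 PrE regulators, 11 fell, 0 rose and 6 were in fast loss, with a median slope of -0.51 against -0.00671 over all genes, and a median of 34.7% of the 0 h share left at 3 h. Sox7, a SoxF transcription factor of endoderm, had 102 and 94.7 CPM at 0 h, 51.8 and 52.1 CPM at 1 h, 17.7 and 16.9 CPM at 2 h, and 7.94 and 7.91 CPM at 3 h. Both libraries of each hour lay below both of the hour before, and the slope was -1.24 ± 0.05 per hour (adjusted p = 3.18e-07), the most negative of all genes averaging at least 10 CPM with a symbol that is no predicted locus name. Sox17, the other SoxF factor of the list and a driver of endoderm differentiation, had 36.8 and 35.7 CPM at 0 h, 18.2 and 18.2 CPM at 1 h, 5.71 and 6.43 CPM at 2 h, and 3.64 and 4.30 CPM at 3 h. Its levels also stepped down every hour without overlap, with a slope of -1.14 ± 0.06 (adjusted p = 8.54e-07), and 10.9% of its share was left at 3 h against 8.08% for Sox7.

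The GATA factors fell too, with slopes nearer to 0. Gata6, the factor at the top of PrE specification, had 132 and 138 CPM at 0 h, 92.1 and 93.7 CPM at 1 h, 60.0 and 59.9 CPM at 2 h, and 41.3 and 43.5 CPM at 3 h. Gata4, which acts after it, had 163 and 160.3 CPM at 0 h, 123 and 122 CPM at 1 h, 88.4 and 79.5 CPM at 2 h, and 53.7 and 54.7 CPM at 3 h. Neither gene had libraries of different hours that overlapped, and the slopes were -0.56 ± 0.023 for Gata6 (adjusted p = 2.85e-07) and -0.53 ± 0.028 for Gata4 (adjusted p = 8.54e-07). These rates left 31.4% and 33.6% of the 0 h share after 3 h. The loss of Gata4 grew over the hours, with log2 steps of -0.40, -0.55 and -0.63 (departure from a line, adjusted p = 0.000804). Pdgfra, the PDGF receptor that marks PrE, had 233 and 232 CPM at 0 h, 152 and 154 CPM at 1 h, 121 and 120.0 CPM at 2 h, and 126 and 121 CPM at 3 h. It fell for 2 h and its 3 h libraries lay just above those of 2 h, so its slope of -0.31 ± 0.047 (adjusted p = 0.000349) averages a slope of -0.48 per hour over 0 to 2 h and a last step of 0.041 ± 0.035, adjusted p = 0.362.

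Foxa2 and Cited1, named after their values were seen, mark the ends of the list. Foxa2, a pioneer factor of endoderm, was low, with 7.24 and 5.70 CPM at 0 h, 3.05 and 1.89 CPM at 1 h, 0.544 and 0.901 CPM at 2 h, and 0.546 and 0.486 CPM at 3 h, and had the most negative slope of the list, -1.35 ± 0.11 (adjusted p = 8.35e-06). Cited1, a transcriptional co-regulator, had 7.12 and 7.49 CPM at 0 h, 10.8 and 10.5 CPM at 1 h, 13.9 and 13.6 CPM at 2 h, and 8.85 and 10.2 CPM at 3 h, higher at 2 h than at 0 h and lower again at 3 h. It was the member that did not pass the test (slope 0.15 ± 0.09, adjusted p = 0.179), and over 0 to 2 h alone its slope was 0.45 (adjusted p = 7.29e-09).

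**Figure D1:**
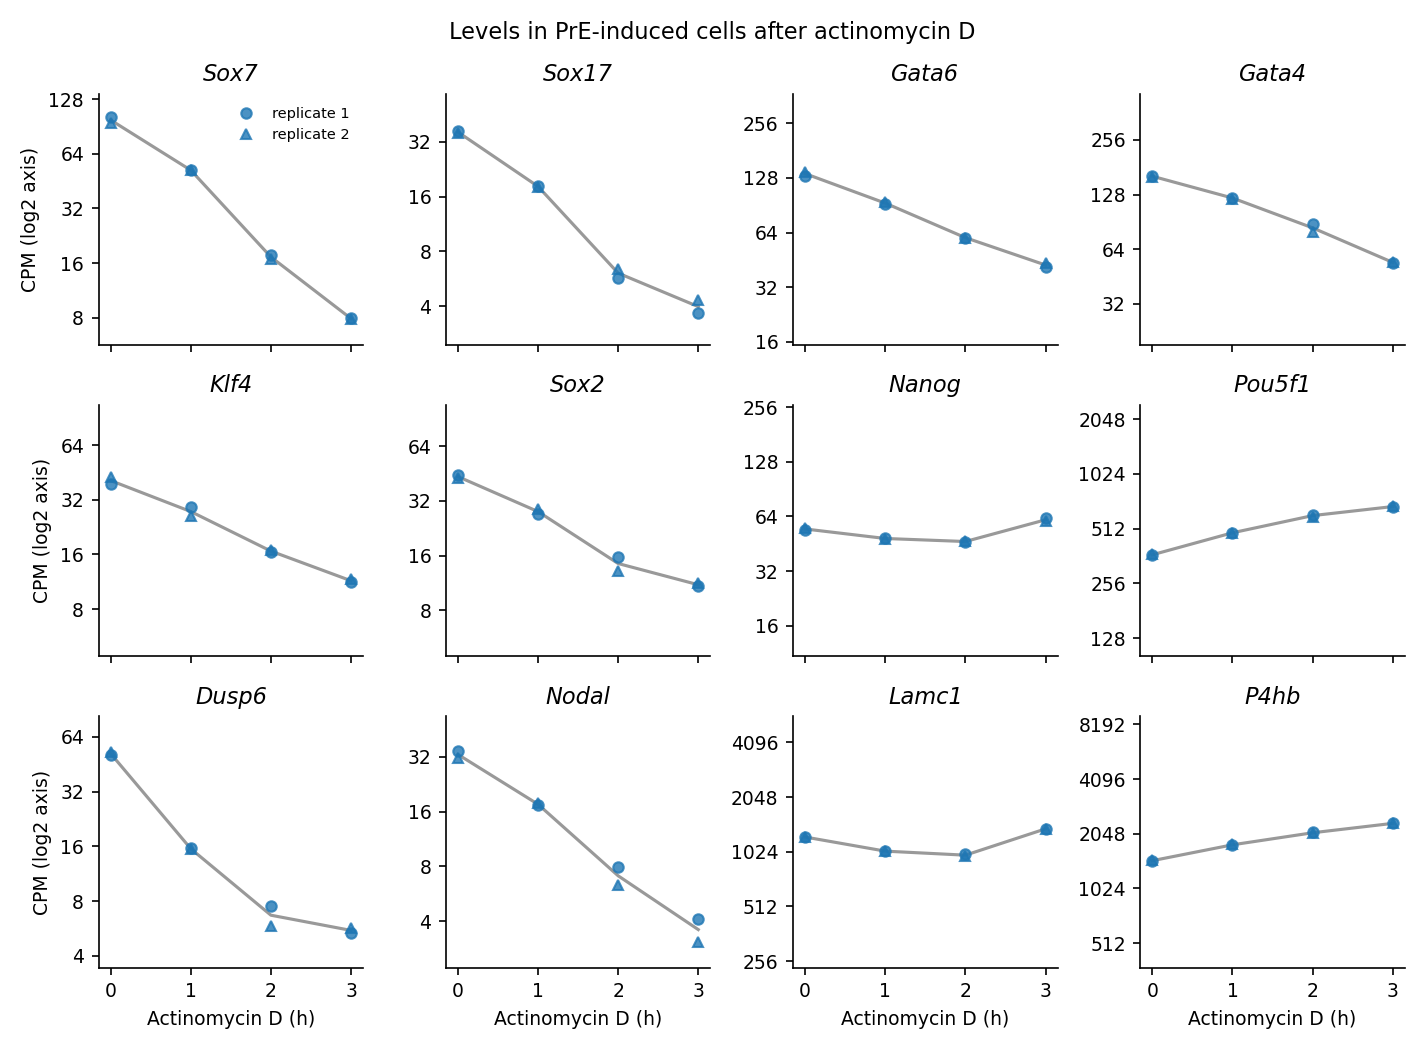
CPM on a log2 axis against hours of actinomycin D for 12 genes in PrE-induced cells, with both replicates as points, a line through their mean, and a vertical range of equal fold in every panel. Sox7 ends at 8.08% of its 0 h share, Gata6 at 31.4%, Pou5f1 at 184% and P4hb at 160.4%, and Lamc1 and Nanog turn upward between 2 and 3 h.

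Pluripotency genes, which these cultures still held, lay on both sides of 0. Slopes ran from -0.699 to 0.388 in the naive list and from -0.693 to 0.296 in the core list, against -1.63 to 0.638 over all genes. Of 16 naive pluripotency genes 8 fell, 3 rose and 5 were in fast loss (median slope -0.10), and of 10 core pluripotency genes 5 fell, 3 rose and 2 were in fast loss (median -0.063). Klf5 and Klf4, Krüppel-like factors of the naive network, had slopes of -0.62 ± 0.021 and -0.62 ± 0.032 (adjusted p = 2.03e-07 and 6.6e-07), and Klf2 of -0.56 ± 0.035 (adjusted p = 1.92e-06). Tbx3, a T-box factor active in naive cells and in PrE, fell with -0.70 ± 0.063 (adjusted p = 1.56e-05). Sox2, the partner of Pou5f1 in the core network, had 44.4 and 42.6 CPM at 0 h, 27.1 and 28.8 CPM at 1 h, 15.7 and 13.2 CPM at 2 h, and 10.9 and 11.2 CPM at 3 h. Each hour lay below the one before without overlap (slope -0.69 ± 0.044, adjusted p = 2.3e-06). Pou5f1, the POU factor itself, had 366 and 369.8 CPM at 0 h, 488 and 485 CPM at 1 h, 611 and 597 CPM at 2 h, and 676 and 679 CPM at 3 h. Its share was higher at every hour than at the one before, with a slope of 0.30 ± 0.026 (adjusted p = 1.12e-05), so the core pair moved in opposite directions relative to the average transcript. Nanog had 54.1 and 55.1 CPM at 0 h, 48.6 and 48.3 CPM at 1 h, 46.4 and 46.8 CPM at 2 h, and 62.6 and 60.1 CPM at 3 h. Its 3 h libraries lay above all others, the slope over 0 to 3 h was 0.047 ± 0.045, adjusted p = 0.405, and without the 3 h libraries it turned to -0.11 (adjusted p = 0.000551).

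Many feedback genes of the signalling pathways were in fast loss: 6 of 15 FGF and ERK feedback genes, 4 of 17 BMP and Nodal genes and 5 of 13 Wnt and Notch feedback genes, beside 5.25% of all genes. Falling genes numbered 10, 12 and 8 in these lists and rising genes 1, 1 and 0, with median slopes of -0.31, -0.33 and -0.39. Nodal, the ligand that maintains the epiblast and patterns it, had 34.5 and 31.6 CPM at 0 h, 17.3 and 17.8 CPM at 1 h, 7.88 and 6.31 CPM at 2 h, and 4.12 and 3.05 CPM at 3 h. The levels did not overlap between hours and the slope was -1.09 ± 0.051 (adjusted p = 6.5e-07). Dusp6, a phosphatase that shuts off ERK, had 50.9 and 52.7 CPM at 0 h, 15.6 and 15.4 CPM at 1 h, 7.54 and 5.83 CPM at 2 h, and 5.34 and 5.69 CPM at 3 h. Its fall was front-loaded, with steps of -1.74 ± 0.067, adjusted p = 1.05e-38 in the first hour and -0.27 ± 0.15, adjusted p = 0.143 in the last, when the libraries of 2 and 3 h lay close together. Spry2, a receptor-signalling inhibitor induced by ERK, had a slope of -0.86 ± 0.057 (adjusted p = 2.93e-06), and the phosphatases Dusp4 and Dusp5 had -0.70 ± 0.039 and -0.80 ± 0.06 (adjusted p = 1.08e-06 and 5.65e-06). Hes1, the repressor that is a direct Notch target, had 22.6 and 22.6 CPM at 0 h, 9.77 and 10.3 CPM at 1 h, 3.74 and 2.94 CPM at 2 h, and 2.18 and 1.60 CPM at 3 h. Its slope of -1.26 ± 0.06 (adjusted p = 6.5e-07) left 8.34% at 3 h, and Axin2, the negative feedback scaffold of Wnt signalling, kept 25.2% (-0.70 ± 0.053, adjusted p = 5.65e-06). Of 11 Myc family genes 5 fell and 1 rose, and Myc itself had a slope of -0.95 ± 0.069 (adjusted p = 4.78e-06) and Mycn of -0.71 ± 0.034 (adjusted p = 6.4e-07).

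Immediate early genes, the rapid responders to growth signals, had the most negative median of the lists with more than 2 genes tested. Of 26 tested, 22 fell, 1 rose and 16 were in fast loss, with a median slope of -0.60, which was -0.73 over 0 to 2 h. Dusp1, a phosphatase for MAP kinases, had 46.9 and 47.2 CPM at 0 h, 16.3 and 16.7 CPM at 1 h, 8.02 and 6.73 CPM at 2 h, and 5.28 and 5.90 CPM at 3 h, and a slope of -1.09 ± 0.079 (adjusted p = 4.67e-06). Ccn1, a secreted matrix protein, and Btg1, an antiproliferative adaptor of deadenylases, had -1.12 ± 0.083 and -0.88 ± 0.06 (adjusted p = 4.99e-06 and 3.61e-06). Among 15 cytokine and NF-kB feedback genes 8 fell, 1 rose and 3 were in fast loss. Socs3, the inhibitor of LIF and JAK-STAT signalling, had 86 and 83.1 CPM at 0 h, 33.3 and 32.3 CPM at 1 h, 15.4 and 16.5 CPM at 2 h, and 12.4 and 12.1 CPM at 3 h, so 14.5% of its share was left (slope -0.97 ± 0.07, adjusted p = 4.57e-06). Nfkbia, the inhibitor that holds NF-kB in the cytoplasm, and Tnfaip3, a ubiquitin-editing enzyme of the same feedback, had -1.01 ± 0.085 and -1.14 ± 0.13 (adjusted p = 1.05e-05 and 7.4e-05). Outside the lists, the kinase Sgk1 (-1.09 ± 0.072, adjusted p = 2.87e-06) and the co-regulator Cited2 (-1.01 ± 0.039, adjusted p = 2.85e-07) were among the 14 most negative slopes.

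AU-rich elements, of which TATTTAT is a core form, are known to recruit decay factors to short-lived messages, so 3′ UTRs were searched for these letters on the sense strand. TATTTAT contains the shorter motif ATTTA, of which fast-loss 3′ UTRs held a median of 1.80 per kb, relative-gain ones 0.80 and all 1.29. TATTTAT was in 43.0% of the fast-loss 3′ UTRs (296 of 689), 42.5% of the slow-loss ones, 17.2% of the relative-gain ones and 30.1% of all 13045. Among 3′ UTRs of 1 to 2 kb, the shares were 48.0% for fast loss, 35.9% for slow loss, 24.7% for relative gain and 32.6% for all, so fast loss stood above and relative gain below all genes at like length too. The first match is printed for 6 fast-loss genes described here, picked among those that carry it, so they do not stand for the class. Each is shown with 30 bases of GENCODE M21 transcript sequence (GRCm38, matched by symbol), written 5′ to 3′ with TATTTAT in capitals.
Dusp1: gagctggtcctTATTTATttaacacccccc
Nodal: atatatatatgTATTTATttttgatgccat
Spry2: agtgtaaagaaTATTTATttgaagttttat
Nfkbia: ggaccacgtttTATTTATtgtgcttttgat
Sox2: cttttgtacagTATTTATcgagataaacat
Klf2: aaacagactgcTATTTATtggaccttagga
These matches start at base 104 of the 3′ UTR in Dusp1, 318 in Nodal, 694 in Spry2, 297 in Nfkbia, 458 in Sox2 and 80 in Klf2. The letters were not found in the 3′ UTRs used for Sox7, Sox17, Gata4, Hes1, Dusp6, Myc and Klf4, all in fast loss as well. Other named fast-loss genes without them included Gata6, Dusp4, Dusp5, Cited2, Btg1, Mycn, Zfp105 and Zfp553. GGACT, a letter string that fits the m6A consensus, was in 70.5% of fast-loss, 50.5% of relative-gain and 63.5% of all 3′ UTRs, but at 1 to 2 kb in 75.8%, 73.2% and 74.4%.

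Genes named Zfp with a number, mostly zinc finger proteins that bind DNA, were the largest list in fast loss. Of 341 tested, 282 fell, 6 rose and 139 were in fast loss, with a median slope of -0.43 and 42.6% of the share left at 3 h. Zfp105 had 14.2 and 13.8 CPM at 0 h, 5.12 and 6.18 CPM at 1 h, 1.83 and 1.44 CPM at 2 h, and 0.849 and 0.694 CPM at 3 h. Its levels stepped down without overlap to 5.51% of the start (slope -1.45 ± 0.064, adjusted p = 5.19e-07). Zfp26, Zfp703, Zfp830 and Zfp553 had slopes of -0.89, -0.89, -0.87 and -0.67 (adjusted p = 6.47e-05, 2.85e-07, 6.5e-07 and 5.19e-07). Counts of close paralogs in this family are uncertain, since the handling of shared reads is not given. Zbed6, a domesticated transposase-derived factor encoded in an intron of Zc3h11a, had 36.9 and 35 CPM at 0 h, 6.44 and 7.96 CPM at 1 h, 2.17 and 1.80 CPM at 2 h, and 6.67 and 6.11 CPM at 3 h. Its 3 h libraries lay above those of 2 h, reads of it and of the host intron cannot be told apart, and its slope was -1.01 ± 0.23 (adjusted p = 0.00414).

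The genes that place m6A fell, while those that read or remove it were mixed. All 8 m6A writer genes fell, with a median slope of -0.17 and 70.4% of the share left at 3 h, and 1 was in fast loss. That member was Cbll1, the E3-type subunit also called Hakai, with 33.4 and 30.2 CPM at 0 h, 17.5 and 17.4 CPM at 1 h, 9.17 and 11.2 CPM at 2 h, and 8.67 and 7.63 CPM at 3 h (slope -0.68 ± 0.052, adjusted p = 5.93e-06). Mettl3, the methyltransferase, and Mettl14, its partner, had slopes of -0.13 ± 0.031 and -0.13 ± 0.023 (adjusted p = 0.0053 and 0.0009), though Mettl3 missed the threshold over 0 to 2 h (-0.08, adjusted p = 0.0611). The adaptors Virma, Wtap and Zc3h13 had -0.15 ± 0.03, -0.26 ± 0.03 and -0.28 ± 0.044 (adjusted p = 0.00217, 7.23e-05 and 0.000424). Several of these calls rested on the setting. Over 1 to 3 h Virma (adjusted p = 0.207), Mettl14 (adjusted p = 0.0575) and Zc3h13 (adjusted p = 0.0638) missed the threshold. Virma also missed it in the fit of all 16 libraries (adjusted p = 0.223). With the libraries of a time summed, Virma (-0.146), Mettl14 (-0.128) and Mettl3 (-0.128) lost the call. Of 12 m6A readers and erasers 5 fell and 3 rose, with a median slope of -0.030. Ythdf2, the reader that directs decay, had 80.2 and 80.3 CPM at 0 h, 61.9 and 62.9 CPM at 1 h, 45.1 and 43.6 CPM at 2 h, and 34.6 and 32.3 CPM at 3 h, with no overlap between hours and a slope of -0.43 ± 0.024 (adjusted p = 1.1e-06). Igf2bp3, a reader known to stabilise targets, had 80.1 and 76.1 CPM at 0 h, 72 and 75.1 CPM at 1 h, 73.6 and 70.9 CPM at 2 h, and 78.9 and 81.2 CPM at 3 h, libraries that overlapped across hours, and a slope of 0.0083 ± 0.027, adjusted p = 0.816. It was called falling when scaled to library totals (-0.106, adjusted p = 0.0135) and to ribosomal protein genes (-0.338, adjusted p = 0.000923). Among 26 decay genes 13 fell and 1 rose. Tob2, an adaptor of deadenylases, was in fast loss (slope -0.52 ± 0.036, adjusted p = 3.26e-06).

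Products of PrE differentiation mostly kept or gained share. Of 16 genes for basement membrane and collagen processing, 0 fell and 8 rose, with a median slope of 0.13 (0.045 over 0 to 2 h), and of 11 tested visceral endoderm genes 3 fell and 7 rose, with a median of 0.20. P4hb, a subunit of collagen prolyl hydroxylase, had 1450.4 and 1462 CPM at 0 h, 1772 and 1788 CPM at 1 h, 2086 and 2062 CPM at 2 h, and 2333 and 2339 CPM at 3 h. Each hour lay above the one before, with a slope of 0.23 ± 0.022 (adjusted p = 2.47e-05), and the collagen chaperone Serpinh1 and the matrix protein Sparc had 0.23 ± 0.023 and 0.21 ± 0.023 (adjusted p = 2.79e-05 and 5.63e-05). Apoe, a lipid carrier made by visceral endoderm, had 519 and 532 CPM at 0 h, 734 and 755 CPM at 1 h, 979 and 1048 CPM at 2 h, and 1079 and 1115 CPM at 3 h, 209% of its 0 h share at 3 h (slope 0.36 ± 0.036, adjusted p = 2.84e-05). Lamc1, a laminin chain, was the exception to a steady course, with 1229.7 and 1238 CPM at 0 h, 1034 and 1029 CPM at 1 h, 992 and 969 CPM at 2 h, and 1371 and 1366 CPM at 3 h. It fell over 0 to 2 h (-0.17 per hour, adjusted p = 8.48e-11) and rose in the last hour (0.48 ± 0.02, adjusted p = 4.01e-35), so the slope over all times was 0.04 ± 0.053, adjusted p = 0.559. Of the 16 basement membrane genes, 15 rose between 2 and 3 h and 0 fell.

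Housekeeping transcripts gained share. Of 83 ribosomal protein genes 81 rose, with a median slope of 0.36 and a median of 205% of the 0 h CPM at 3 h. Their summed part of all counts, a measure without TMM factors, grew less. It was 9.85% and 9.79% at 0 h, 13.1% and 13.1% at 1 h, 16.2% and 16.2% at 2 h, and 15.8% and 15.7% at 3 h. Rpl3 had 2323 and 2346 CPM at 0 h, 3162 and 3198 CPM at 1 h, 4054 and 4018 CPM at 2 h, and 4462 and 4381 CPM at 3 h (slope 0.31 ± 0.032, adjusted p = 3.1e-05), and Rps29, with 0.42, was among the 8 most positive slopes (adjusted p = 0.000137). All 39 nuclear genes of oxidative phosphorylation rose (median 0.31), as did 14 of 15 glycolysis enzymes (median 0.24). The gain was not steady in every list. Oxidative phosphorylation genes had median steps of 0.51, 0.42 and -0.036, and in the last hour 17 of them fell and 7 rose. In that hour 20 ribosomal protein genes fell and 16 rose, and 0 glycolysis enzymes fell and 14 rose. Gapdh had 3844 and 3904 CPM at 0 h, 5104 and 5182 CPM at 1 h, 6599 and 6657 CPM at 2 h, and 7259 and 7594 CPM at 3 h, each hour above the one before (slope 0.32 ± 0.03, adjusted p = 1.73e-05). Of 30 replication-dependent histone genes with a slope, 23 rose and 0 fell (median 0.40), although their near-identical copies make single counts uncertain. All 63 genes of that list together made up only 0.0042% to 0.00663% of the counts of a library, so these slopes rest on few reads. Mitochondrially encoded transcripts, made by a polymerase of their own, went the other way, with 7 of 12 falling and 1 rising (median -0.14). Most of that fall lay in the last hour. The median slope over 0 to 2 h was -0.059, and the median steps were -0.075, -0.029 and -0.353. Hour by hour 3, 1 and 6 of the 12 fell, and 2, 2 and 1 rose. mt-Nd2, a subunit of complex I, had 723 and 623 CPM at 0 h, 611 and 499 CPM at 1 h, 433 and 375 CPM at 2 h, and 344 and 278 CPM at 3 h, with replicate 1 above replicate 2 at every hour and a slope of -0.38 ± 0.042 (adjusted p = 5.48e-05). With scaling to ribosomal protein genes, the median slopes before the shift of all genes was taken off were negative for glycolysis (-0.105), oxidative phosphorylation (-0.0433), basement membrane (-0.217) and visceral endoderm (-0.146). Under that scaling the slopes of Pou5f1 (-0.052, adjusted p = 0.131) and Gapdh (-0.030, adjusted p = 0.291) were below 0 as well, and P4hb (-0.12, adjusted p = 0.0109), Serpinh1 (-0.12, adjusted p = 0.00849) and Sparc (-0.14, adjusted p = 0.00334) were called falling.

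**Figure D2:**
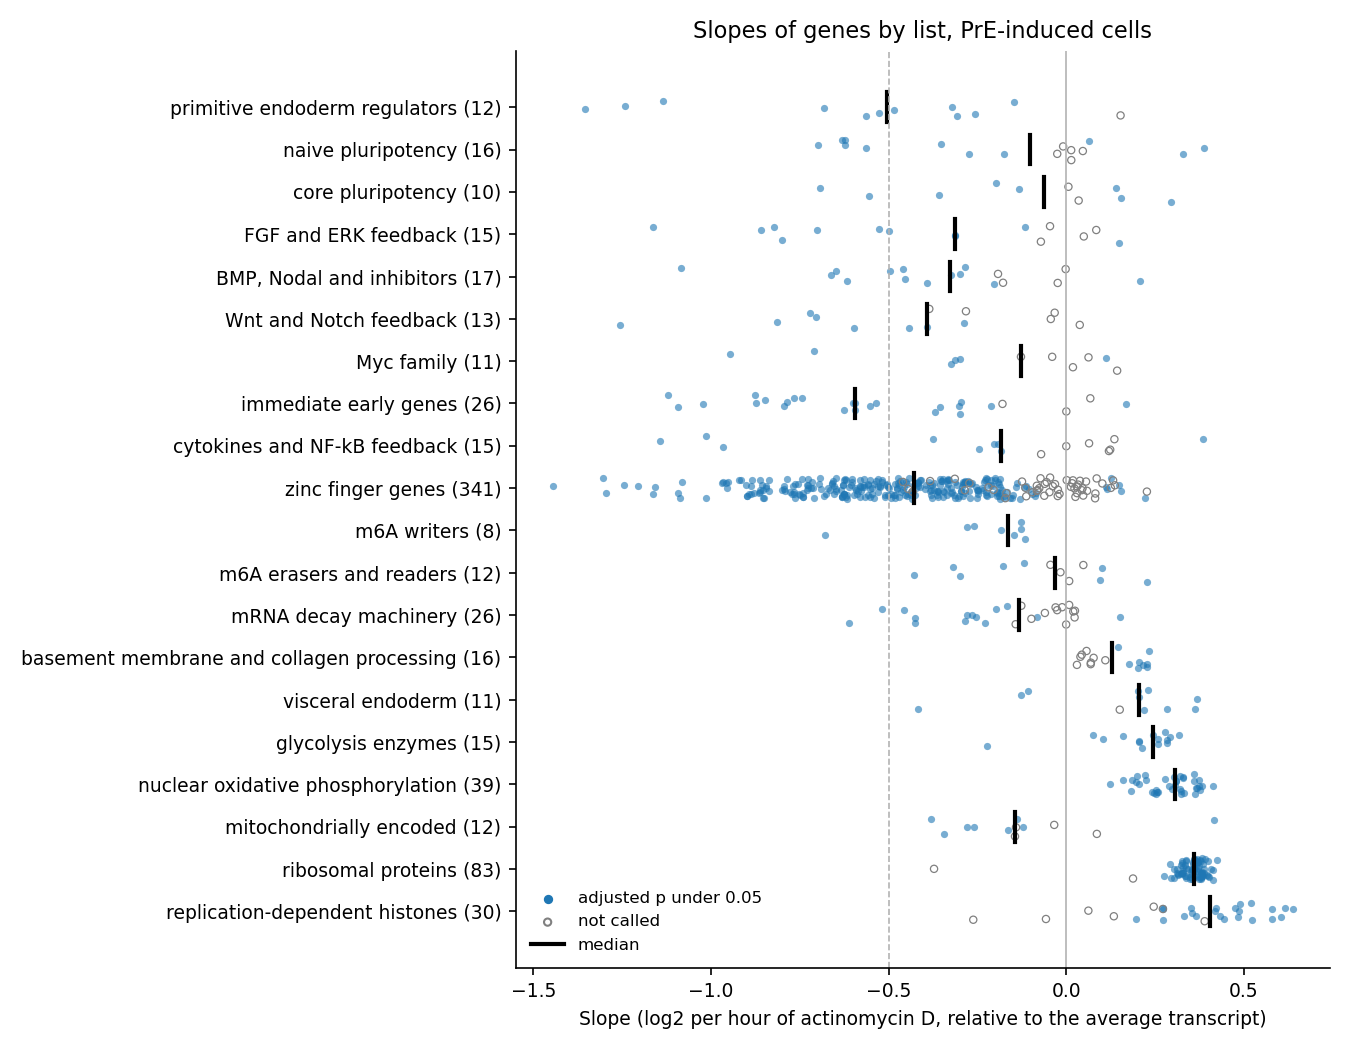
Slopes (log2 per hour, relative to the average transcript) of the genes in 20 lists, with the number tested in brackets, filled points for adjusted p under 0.05, open points for genes not called, a bar at each median and a dashed line at -0.5. PrE regulators centre on -0.51 and immediate early genes on -0.60, while ribosomal protein genes form a narrow band around 0.36.

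Markers of other cells were present at low levels, given here as the range of their sum over the 8 libraries. The 12 feeder fibroblast markers among the counted genes made up 0.0145% to 0.0183% of the counts, and of the 11 tested 7 rose and 0 fell (median slope 0.24). The 14 trophoblast markers made up 0.0296% to 0.0366% (6 of the 12 tested fell, 3 rose), and 2-cell-like markers 0.00433% to 0.00589% (0 of 10 called). Of the defining trophoblast genes, Elf5 had too few reads for a slope. The part of such cells in the slopes was not tested.

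The hours differed. At 1 h against 0 h, 3767 genes fell (27.7%) and 3623 rose (26.7%), at 2 h against 1 h 3175 fell (23.4%) and 3213 rose (23.6%), and at 3 h against 2 h 3026 fell (22.3%) and 2505 rose (18.4%). Scaled to library totals, the counts falling and rising were 5475 and 2109, then 5551 and 1511, then 3971 and 1910, and scaled to ribosomal protein genes 11100 and 49, then 10442 and 64, then 3126 and 2430. Fast-loss genes had median steps of -0.74, -0.76 and -0.39, and 12 of them rose in the last hour. Relative-gain genes had 0.28, 0.25 and 0.013, and in the last hour 843 of them rose and 608 fell. A departure from a straight line was called for 7084 genes, 52.1% of those tested, of which 305 were in fast loss and 2280 in relative gain. Txnip, an inhibitor of glucose uptake, had 475 and 477 CPM at 0 h, 169 and 167 CPM at 1 h, 103 and 100.4 CPM at 2 h, and 123 and 119 CPM at 3 h. It fell steeply in the first hour (-1.50 ± 0.025, adjusted p = 1.76e-64) and rose in the last (0.26 ± 0.036, adjusted p = 5.35e-09). Clk1, a kinase of splicing factors, was also lowest at 2 h, with 154 and 159 CPM at 0 h, 45.2 and 47.9 CPM at 1 h, 29.2 and 28.4 CPM at 2 h, and 36.9 and 35 CPM at 3 h. Its later libraries all stayed below those of 0 h. Ero1a, an oxidase of the endoplasmic reticulum, had 299 and 298 CPM at 0 h, 279 and 278 CPM at 1 h, 281 and 273 CPM at 2 h, and 470.5 and 461 CPM at 3 h, so that its rise fell to the last hour (0.75 ± 0.025, adjusted p = 2.83e-42), and its slope over 0 to 2 h was -0.054 (adjusted p = 0.00506). Mdk, a secreted growth factor, bent the opposite way with 1171 and 1167 CPM at 0 h, 1779 and 1751 CPM at 1 h, 2552 and 2524 CPM at 2 h, and 2289.9 and 2219 CPM at 3 h, highest at 2 h.

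Transcript length separated the early hours from the last. Genes were put in 5 groups of equal size by the length of their longest coding transcript in GENCODE M21, to which 97.6% of the genes could be matched by symbol. From shortest to longest, the median step over 0 to 1 h was 0.31, 0.12, -0.014, -0.11 and -0.26, and over 2 to 3 h it was -0.13, -0.085, -0.050, 0.021 and 0.086. Short transcripts thus gained share in the first hour and lost it in the last, and long ones did the reverse. Across the 8510 matched genes averaging at least 10 CPM, Spearman's rho of length was -0.564 with the slope, -0.679 with the slope over 0 to 2 h and 0.361 with the last step, and that of GC content was 0.206, 0.352 and -0.417. These are descriptions across genes that share libraries and scaling. The part of length and GC in any slope was not tested.

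**Figure D3:**
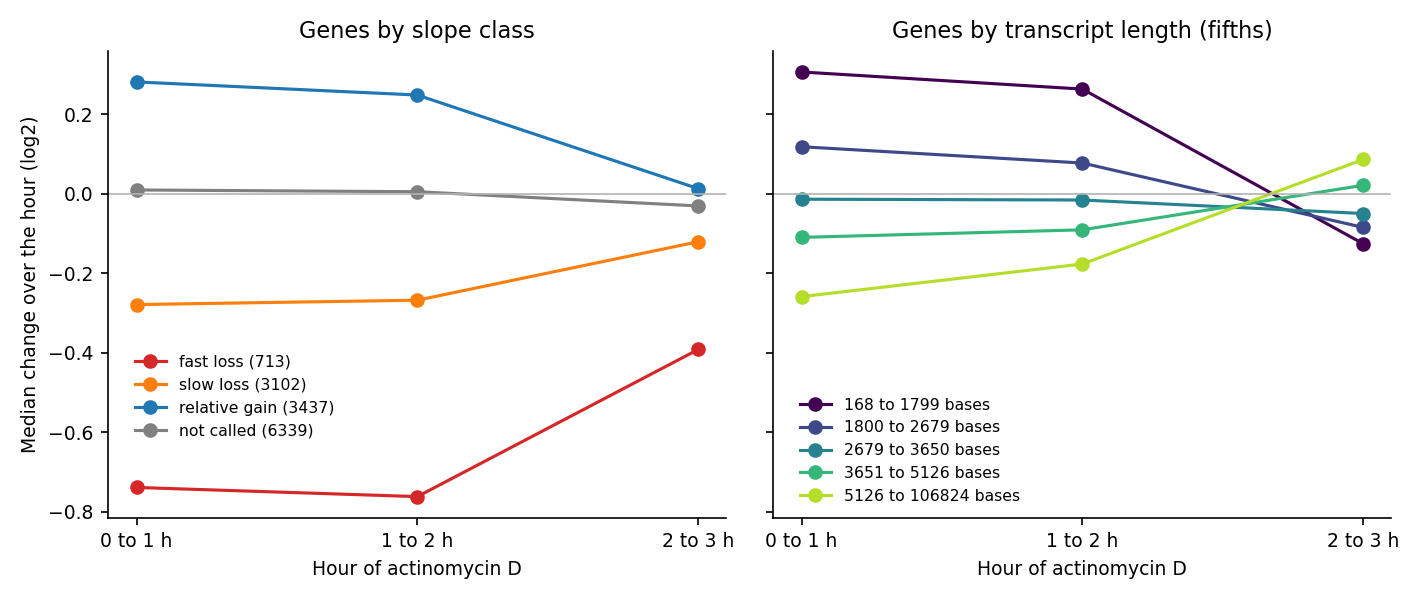
Median log2 change in each hour of actinomycin D, by slope class (left, number of genes in brackets) and by transcript length in 5 groups of equal size (right). Fast-loss genes change by -0.74, -0.76 and -0.39, and the shortest and longest transcripts swap sides of 0 between the first hours and the last.

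Fast-loss transcripts had few exons. Their median was 4 exons, against 8 for relative gain, 10 for slow loss and 9 for all genes, and 9.83% of them had no junction at all, against 2.43% of all genes. Per kb of coding length they had 1.88 exon junctions, against 7.75 for relative gain and 6.41 for all. The contrast was present among genes with 1 to 2 kb of coding length (4 exons in 345 fast-loss genes, 10 in all 5077), without the Zfp genes (4 against 9) and at 10 CPM or more (4 against 10, with 2.39 against 6.88 junctions per kb). In 5 groups of equal size from fewest to most junctions per kb, fast loss held 20.3%, 3.92%, 1.06%, 0.678% and 0.452% of genes and relative gain 5.88%, 15.8%, 25.9%, 32.8% and 45.0%. The median slope in these groups was -0.24, -0.063, 0.0080, 0.047 and 0.094. Spearman's rho of junction density with the slope was 0.435 over the 8510 genes and 0.296, 0.301, 0.383, 0.423 and 0.524 within the length groups from shortest to longest. The density divides all junctions of a transcript, those in UTRs included, by its coding length. Over the same genes coding length had a rho of -0.489 with the slope, so it enters the density. Exon number itself had -0.191, the opposite sign, so fewer exons did not go with faster loss across all genes. Of the 323 genes with no junction, 177 fell, 18 rose and 69 were in fast loss (median slope -0.27). Sox7 and Socs3 have 2 exons, Nodal has 3, and Sox17, Dusp1 and Hes1 have 4, against 7 each in Gata4 and Gata6.

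**Figure D4:**
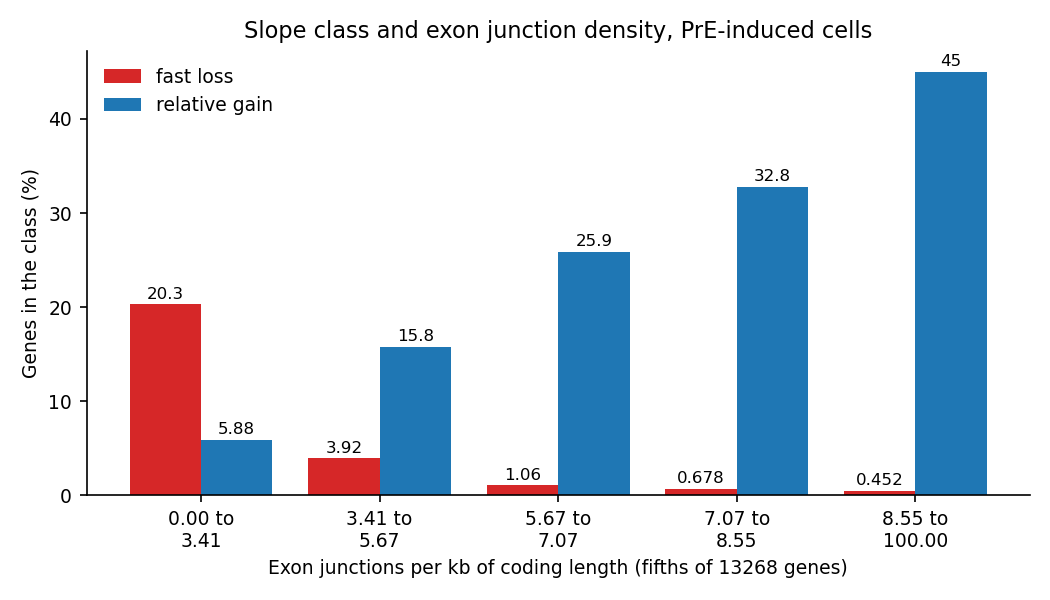
Share of genes (%) in fast loss and in relative gain, by exon junctions per kb of coding length in 5 groups of equal size over 13268 genes, in PrE-induced cells. Fast loss drops from 20.3% in the group with fewest junctions to 0.452% in the group with most, and relative gain climbs from 5.88% to 45.0%.

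The transcripts lost fast in PrE-induced cells also lost share in the uninduced EPS libraries. The 713 fast-loss genes, of which 649 had an EPS slope, had a median slope of -0.64 in PrEdiff and -0.65 in EPS, where 98.5% of the slopes were below 0 against 39.6% of all genes. Relative-gain genes had medians of 0.19 in PrEdiff and 0.18 in EPS. Over 0 to 2 h the fast-loss median was -0.75 in PrEdiff and -0.93 in EPS. Spearman's rho between the slopes of the states was 0.767 over 8652 genes and 0.959 over 8650 genes for 0 to 2 h, a description across genes that share length, depth and table. A difference between the slopes (PrEdiff minus EPS, all 16 libraries) was more negative in PrEdiff for 20 of 14127 genes (0.142%) and more positive for 160 (1.13%). Without the 3 h libraries of both states these counts were 532 and 394, and without only the EPS 3 h libraries 1278 and 2862, so the number of differences rests on that time. Leaving out single libraries moved the count of 20 to between 1, without PrEdiff 0 h replicate 1, and 35, without EPS 2 h replicate 2, and that of 160 to as few as 85, without PrEdiff 3 h replicate 1. The difference was -0.23 ± 0.18, adjusted p = 0.673 for Sox7, 0.032 ± 0.19, adjusted p = 0.958 for Sox17 and 0.27 ± 0.092, adjusted p = 0.212 for Gata6, and none of the 3 passed. Gata4 had -0.30 ± 0.11, adjusted p = 0.247, and over 0 to 2 h -0.60 (adjusted p = 0.0069), a slope more negative in PrEdiff, where its level was 148 and 145 CPM at 0 h, against 2.75 and 3.38 CPM in EPS. Sox2 lost its share more slowly in PrEdiff over 0 to 2 h (0.33, adjusted p = 0.0316), and over 0 to 3 h the difference was 0.26 ± 0.093, adjusted p = 0.248.

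The classes were then read in the other perturbations of PrE-induced cells, whose libraries had no part in the slopes. The table of Virma libraries, whose column names carry the word input, had 10590199 to 12250333 counts per library. Virma had 67.7 and 54.6 CPM in the libraries labelled Virma_cKO, against 106.7 and 109.8 CPM in Virma_WT (log2 change -0.82 ± 0.12, adjusted p = 1.12e-06), lower in both. In all, 1984 of 13113 genes rose in Virma_cKO (15.1%) and 2364 fell (18%). Of the 658 fast-loss genes tested there 21% rose and 13.7% fell, and of the 3280 relative-gain genes 9.73% rose and 30.1% fell, against 15.3% and 18.9% of the 12385 genes with both values. The median change minus that of all genes was 0.115 for fast loss and -0.192 for relative gain, with SDs of 0.020 and 0.011 over the 4 pairings of a cKO and a WT library. These pairings share libraries and are not independent. Leaving out 1 library put the medians at 0.11 to 0.158 for fast loss and -0.218 to -0.186 for relative gain. Slow-loss genes (0.079, 20% rising) and genes not called (0.069, 15.5% rising) lay on the same side as fast loss, so a higher level in Virma_cKO was not particular to fast loss. With classes taken from 0 to 2 h slopes, the medians were 0.061 for fast loss, 0.012 for slow loss, 0.184 for genes not called and -0.143 for relative gain. Scaled to library totals, 30.1% of fast-loss genes rose and 10.8% fell, and 15.8% of relative-gain genes rose and 18.8% fell, against 23.5% and 11.9% of all.

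The PrE regulators did not move with the fast-loss median. Of the 12, 0 rose and 11 fell in Virma_cKO, with Gata6 at -4.21 ± 0.19, adjusted p = 8.06e-19, Sox7 at -4.42 ± 0.21, adjusted p = 6.52e-18 and Sox17 at -2.84 ± 0.28, adjusted p = 5.41e-10. Feeder fibroblast markers moved with the label: 11 of 11 were higher in Virma_cKO, the 12 in the table summed to 0.242% and 0.236% of the counts in Virma_cKO and 0.0856% and 0.0854% in Virma_WT, and 1 of the 12 was at 0 in each library. Their part in the result was not tested. Ribosomal protein genes fell in Virma_cKO in 74 of 83 cases, with Rpl3 at -0.43 ± 0.062, adjusted p = 9.75e-07. Mettl3 had 34.9 and 37.1 CPM in the libraries labelled Mettl3_cKO, against 37.4 and 35.2 CPM in Mettl3_WT (adjusted p = 0.978), and Igf2bp3 had 116.6 and 110.8 CPM in siIgf2bp3, against 98.4 and 112.9 CPM in siNC (adjusted p = 0.577), so neither label was matched by a lower level of its gene. In the libraries labelled Mettl3_cKO the class medians minus all genes were -0.005 for fast loss and 0.004 for relative gain, and in those labelled siIgf2bp3 -0.006 and -0.053. In PrE-E against EPI-E they were -0.138 and 0.165. Leaving out 1 of the 4 libraries of that pair put the fast-loss median between -0.0839 and -0.0577. Spearman's rho of these changes with the slope was -0.147 for Virma_cKO, 0.104 for Mettl3_cKO, -0.163 for siIgf2bp3 and 0.080 for PrE-E, over 8602 to 8649 genes that share length and depth.

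**Figure D5:**
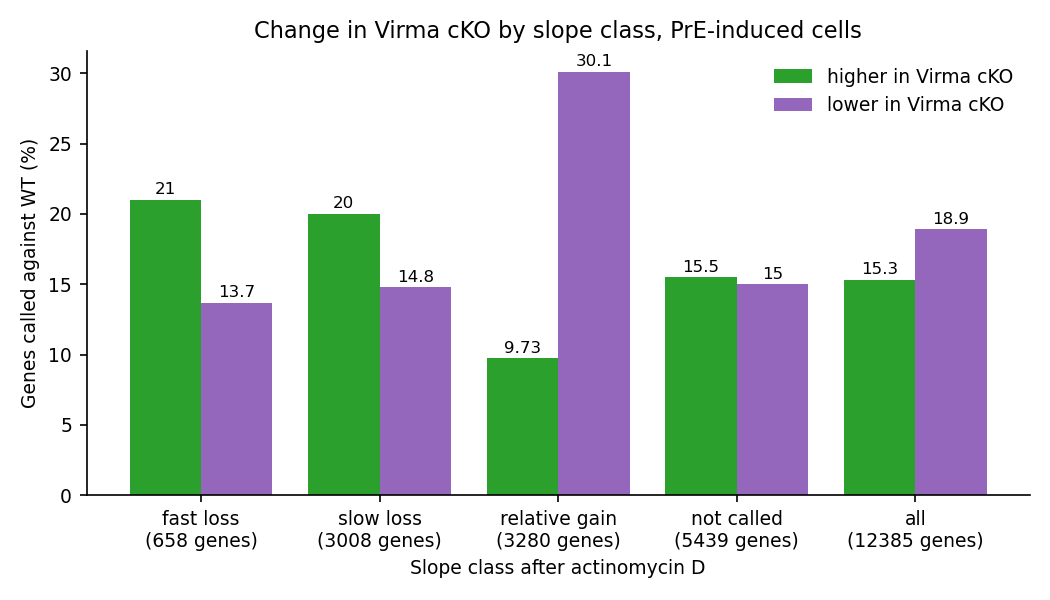
Share of genes (%) called higher or lower in Virma_cKO against Virma_WT, by slope class after actinomycin D, with the number of genes in brackets. Relative-gain genes are lower in 30.1% of cases and higher in 9.73%, and fast-loss genes higher in 21% and lower in 13.7%.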

How the data were processed

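RNA was measured by sequencing of total RNA libraries (2 kits are named per the labels' protocols, and which library used which is not given in the sources used here). The authors deposited raw counts per gene and sample, not normalized. STAR 2.7.11b, Trim Galore, FastQC 0.12.1, DESeq2 and Subread are the tools, and mm39 the genome build, named in the submitters' processing notes. The annotation and the strand setting of the counting are not given in the sources used here, so overlapping genes and near-identical copies are uncertain. The series has 7 such count files, of which 5 were used, and each was tested on its own.

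From these counts, slopes were fitted with edgeR 4.0.16 and limma 3.58.1 (R 4.3.3): glmQLFit (robust) and glmQLFTest on the 8 PrEdiff libraries with time in hours, TMM factors, filterByExpr with a minimum count of 10 and a minimum total of 15, a prior count of 2, and Benjamini-Hochberg adjustment over all genes tested. Steps between hours and the departure from a line came from a fit with a mean per time, and slope differences from all 16 actinomycin D libraries. The other tables were compared 2 libraries against 2. Values after ± are standard errors unless named SD. Transcript features came from the longest protein-coding transcript per symbol in GENCODE M21, with 3′ UTRs of at least 50 bases (Python 3.11.15, pandas 2.3.3). The reference is GRCm38, so no coordinates are given.

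Members and lists were chosen with earlier results of these data known. Genes were named by rule: the 14 most negative and 8 most positive slopes with a mean of at least 10 CPM, up to 4 genes per list by adjusted p, the PrE, pluripotency and m6A genes of a fixed panel, and 6 genes per direction for departures and slope differences. Foxa2 and Cited1 fall outside the rule. Tested on simulated counts, the slope fit recovered 100% of 200 genes with a slope of -1, 95% of 200 at -0.5 and 74.75% of 198 at -0.2, with 9 to 10 false calls. Only these genes changed in the simulation, along straight lines, with an assumed spread between libraries. Far more genes changed in the data and many bent, so the simulation does not cover curved courses or the choice of scaling. Alternatives covered scaling, filter, tool, times, replicate block and each library left out. DESeq2 1.42.0 was an alternative.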

Additional observations from a re-analysis of the deposited data

Results flagged for a closer look

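These genes had a slope that differed between PrE-induced cells and EPS in the fit of all 16 libraries (PrEdiff minus EPS, log2 per hour) and had the smallest p in their direction. All 12 passed with RLE size factors too, and 9 of them with library totals. Scaled to ribosomal protein genes, none of the 12 passed (adjusted p 0.617 to 0.671), while every difference kept its sign, from -0.442 to -0.327 for the 6 more negative genes and from 0.143 to 0.502 for the 6 more positive ones. Nectin3, an adhesion molecule, had a difference of 0.42 ± 0.046 (adjusted p = 0.00158), with slopes of -0.0083 in PrEdiff and -0.43 in EPS. Irf2bpl, an E3-type transcriptional regulator, had 0.35 ± 0.04 (adjusted p = 0.00158), with slopes of -0.32 in PrEdiff and -0.67 in EPS. Slc19a2, a thiamine transporter, had 0.28 ± 0.037 (adjusted p = 0.00396), with slopes of -0.05 in PrEdiff and -0.33 in EPS. Cdkn1a, the p21 inhibitor of cyclin-dependent kinases, had 0.37 ± 0.049 (adjusted p = 0.00396), with slopes of -0.21 in PrEdiff and -0.57 in EPS, and its levels in PrEdiff were 34.1 and 33.6 CPM at 0 h, 24.6 and 24.3 CPM at 1 h, 25.4 and 23.5 CPM at 2 h, and 20.2 and 22.1 CPM at 3 h, against 74.7 and 76.7 CPM at 0 h, 51.9 and 49.1 CPM at 1 h, 33.7 and 35.8 CPM at 2 h, and 23 and 22.7 CPM at 3 h in EPS. Zfp42, also called Rex1 and a marker of naive pluripotency, had 0.37 ± 0.048 (adjusted p = 0.00396), with slopes of -0.14 in PrEdiff and -0.51 in EPS, and Pim3, a survival kinase, had 0.65 ± 0.085 (adjusted p = 0.00396), with slopes of -0.36 in PrEdiff and -1.01 in EPS. Over 0 to 2 h the last 2 no longer passed, with 0.19 (adjusted p = 0.0526) for Zfp42 and 0.33 (adjusted p = 0.0661) for Pim3.

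More negative slopes in PrEdiff were found for Ogdh, a subunit of the oxoglutarate dehydrogenase complex, with -0.24 ± 0.044 (adjusted p = 0.0127), with slopes of -0.032 in PrEdiff and 0.21 in EPS. Lrrc45, a centrosome linker protein, had -0.29 ± 0.057 (adjusted p = 0.0198), with slopes of -0.072 in PrEdiff and 0.21 in EPS. Vangl1, a planar cell polarity protein, had -0.29 ± 0.058 (adjusted p = 0.0219), with slopes of -0.39 in PrEdiff and -0.11 in EPS. Zfp692, a zinc finger gene, had -0.22 ± 0.045 (adjusted p = 0.0225), with slopes of 0.0071 in PrEdiff and 0.23 in EPS. The splicing factors Srsf6 and Sfpq had -0.18 ± 0.038 (adjusted p = 0.0288), with slopes of -0.078 in PrEdiff and 0.10 in EPS, and -0.25 ± 0.055 (adjusted p = 0.0366), with slopes of -0.08 in PrEdiff and 0.17 in EPS. Leaving out PrEdiff 3 h replicate 2 ended all 6 calls, and leaving out either PrEdiff 0 h library or either EPS 3 h library ended those of Lrrc45, Vangl1, Zfp692, Srsf6 and Sfpq. Scaling to library totals ended the calls of Vangl1 (adjusted p = 0.0544), Srsf6 (adjusted p = 0.0792) and Sfpq (adjusted p = 0.0861), and a replicate block those of Srsf6 (adjusted p = 0.0519) and Sfpq (adjusted p = 0.0611). Ogdh had an adjusted p of 0.0555 without PrEdiff 3 h replicate 1 and of 0.0517 without replicate 2, and over 0 to 2 h all 6 passed (adjusted p 0.0127 to 0.0437).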

How the results depend on the processing

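Depth limits genes of low level, which make up most of the fast-loss class, and the scaling sets the zero of every slope. Labels number the replicates, and whether the numbers pair the samples over the times is not known. The differences between replicates 1 and 2 correlated by 0.0208 to 0.0576 between times over 8660 genes. Those differences lay close to sampling noise, so the correlations can neither show nor exclude a pairing. With a replicate block, 3613 genes fell, 3224 rose and 710 were in fast loss, and 7163 departed from a line. With the block, slope differences fell to 8 more negative and 129 more positive genes. The hourly counts with the block were 3808 and 3661, 3210 and 3256, and 3089 and 2563, and the Virma class medians 0.116 and -0.198. The hourly counts under other settings, the fit without the EPS 3 h libraries and the class medians under library totals or with classes from 0 to 2 h were chosen after seeing the data. The cause of the changes below was not tested.

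Scaled to library totals, 6628 slopes fell, 1312 rose and 1226 were in fast loss, and scaled to ribosomal protein genes 12086, 11 and 3599. Over 0 to 2 h, 1127 were in fast loss. Over 1 to 3 h, 2043 fell and 1973 rose. In the fit of all 16 libraries 2343 fell, and with the libraries of a time summed 1978 fell and 1109 rose. A limit of -0.4 put 1126 genes in fast loss and one of -0.7 put 259. Slope differences (more negative, more positive) numbered 532 and 394 over 0 to 2 h, 1278 and 2862 without the EPS 3 h libraries, 0 and 2 with ribosomal protein scaling, and 130 and 386 with DESeq2, and 6 were more negative with no filter. Under library totals 2109 genes rose at 1 h, and 5551 fell and 1511 rose at 2 h against 1 h. Under ribosomal protein scaling these counts were 11100 falling and 49 rising, then 10442 and 64. With classes from 0 to 2 h, the medians for fast loss and relative gain were 0.0614 and -0.143 in Virma_cKO, -0.106 and 0.066 in PrE-E, and 0.0498 for fast loss in siIgf2bp3, a reversal.

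Leaving out each library in turn gave 2922 to 3775 falling, 2972 to 3377 rising and 664 to 824 fast-loss slopes, and 6420 to 6819 departures. Hourly counts ranged over 3201 to 3792 and 3184 to 3702, 2559 to 3241 and 2699 to 3238, and 2235 to 3028 and 2038 to 2975. Slope differences ranged from 1 (without PrEdiff 0 h replicate 1) to 35 (without EPS 2 h replicate 2) more negative and from 85 (without PrEdiff 3 h replicate 1) to 171 more positive. Class medians for fast loss and relative gain ranged over 0.11 to 0.158 and -0.218 to -0.186 in Virma_cKO, -0.0259 to 0.00723 and -0.00671 to 0.0132 in Mettl3_cKO, -0.0372 to 0.01 and -0.0706 to -0.0396 in siIgf2bp3, and -0.0839 to -0.0577 and 0.154 to 0.187 in PrE-E. The reversals among them were -0.00671, 0.00723, -0.00406 and 0.01.

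Slopes that reversed over 0 to 2 h were Nanog (-0.115), Igf2bp3 (-0.0554), Lamc1 (-0.165) and Ero1a (-0.054), and over 1 to 3 h Cited1 (-0.0579). Without PrEdiff 3 h replicate 1 or 2, Igf2bp3 had -0.000959 and -0.0105 and Lamc1 -0.00294 and -0.0014, with highest values of 0.0414 and 0.0897 over the libraries left out. Slope differences that reversed were Sox17 over 0 to 2 h (-0.0312), without EPS 2 h replicates 1 and 2 (-0.109 and -0.0864) and without PrEdiff 3 h replicate 2 (-0.0273; up to 0.172 over the libraries left out), Gata6 over 0 to 2 h (-0.0731), and Pou5f1 over 0 to 2 h (-0.205) and without the EPS 3 h libraries (-0.199). Outside the scalings to library totals and ribosomal protein genes, 1597 values of the 91 named slopes kept their direction and side of the threshold, 25 lost the call, 7 gained it and 9 reversed. Scaled to ribosomal protein genes, with no shift taken off, 15 of the 24 rising slopes were below 0, and 5 of them were called falling: P4hb (-0.121), Calr (-0.118), Serpinh1 (-0.116), Sparc (-0.142) and Hnrnpc (-0.12). Library totals turned 0 of the 24. Some slopes that had not passed were called falling under ribosomal protein scaling. These were Igf2bp3 (-0.338, adjusted p = 0.000923), Nanog (-0.297, adjusted p = 0.00876), Lamc1 (-0.303, adjusted p = 0.0123) and Cited1 (-0.196, adjusted p = 0.00948). Under library totals Igf2bp3 was called falling as well (-0.106, adjusted p = 0.0135).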

Other observations

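Cell cycle and stress genes not described above lay on both sides of 0 in PrE-induced cells. Among all genes tested 28.1% fell and 25.3% rose. Of 20 cyclin and mitosis genes 9 fell, 4 rose and 1 was in fast loss. Cdc25a, the phosphatase that activates cyclin-dependent kinases, had 138 and 135 CPM at 0 h, 107 and 102 CPM at 1 h, 86.4 and 88.1 CPM at 2 h, and 85.6 and 84.7 CPM at 3 h (slope -0.23 ± 0.031, adjusted p = 0.000159). Aurka, a mitotic kinase, had a slope of -0.28 ± 0.022 (adjusted p = 5.65e-06), and Mcm10, a replication factor, of -0.31 ± 0.021 (adjusted p = 3.55e-06). Of 10 genes of the MCM helicase list 3 fell and 1 rose. Among 16 p53 targets 5 fell and 5 rose. These counts were near the shares of all genes, as was the falling count of the MCM helicase list. Plk2, a kinase of the stress response, had 30.5 and 28.9 CPM at 0 h, 13.3 and 12.7 CPM at 1 h, 7 and 7.09 CPM at 2 h, and 6.19 and 6.73 CPM at 3 h, a share left of 21.7% at 3 h (slope -0.78 ± 0.076, adjusted p = 2.4e-05), while Perp, a junction protein, had a slope of 0.21 ± 0.026 (adjusted p = 9.19e-05).

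Of 18 genes of the integrated stress response and ER chaperones 7 fell and 9 rose. Xbp1, the transcription factor of the unfolded protein response, and Chac1, a glutathione-degrading enzyme, had slopes of -0.54 ± 0.028 and -1.02 ± 0.11 (adjusted p = 6.6e-07 and 5.5e-05), whereas the chaperones Pdia6 and Calr had 0.25 ± 0.021 and 0.23 ± 0.022 (adjusted p = 9.54e-06 and 2.07e-05). Scaled to ribosomal protein genes, Calr had a slope of -0.12 (adjusted p = 0.0131). Of 20 splicing regulators 13 fell and 1 rose, among them the kinase Clk2 (-0.35 ± 0.026, adjusted p = 5.24e-06) and Srsf1, an SR protein (-0.24 ± 0.035, adjusted p = 0.000244). Nupr1, a small stress-induced chromatin protein, had the most positive slope of the genes averaging at least 10 CPM, with 23 and 25.5 CPM at 0 h, 31.4 and 30.8 CPM at 1 h, 39.3 and 46.9 CPM at 2 h, and 58.5 and 63.3 CPM at 3 h (slope 0.45 ± 0.033, adjusted p = 4.99e-06).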
